A study of Mus musculus with 12 samples.

Results

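The first transcriptional wave of liver regeneration was read from the 3 liver libraries taken 3 h after removal of 70% of the liver (partial hepatectomy), set against the 3 libraries from sham-operated mice. All mice were wild-type C57/BL6J by the labels, which give neither their age nor the hour at which the sham livers were taken. The 6 libraries are 6 of 12 in the series, and the libraries from 6 h and 12 h entered the model to estimate the spread. They also counted in the scaling and in the choice of tested genes (the third 6 h library carries a time tag of 7 h). RNA of the whole liver was extracted with TRIzol and sequenced from poly(A) libraries made with a NEBNext Ultra kit. Of the 54532 genes in the deposited table, 25710 had a read in at least 1 of the 6 libraries, and 11451 were expressed highly enough to be tested.

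After most of the liver is removed, the hepatocytes that remain leave quiescence and divide, and the lobes grow until the lost mass is restored. Before any DNA is made the cells pass through a priming phase, in which cytokines of the interleukin 6 and TNF families act on hepatocytes through STAT3 and NF-kB and immediate early genes such as Fos, Jun and Myc are switched on without new protein synthesis. The same cytokines drive the acute phase response, in which the liver changes the set of proteins it secretes into blood. Meanwhile the remnant has to keep up glucose output, nitrogen disposal and bile formation for the whole animal. The comparison at 3 h asks which genes of these programmes have already moved.

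Levels are given as FPKM (fragments per kilobase of gene, scaled to the size of the library), the authors' length-scaled values, as the replicates in order or as mean ± SD with n = 3. Differences are log2 of 3 h over sham ± SE from the edgeR quasi-likelihood test on counts, and a gene was called higher or lower at a Benjamini-Hochberg adjusted p under 0.05 over all tested genes. "Rose" and "fell" are used only of called genes. Whether each library is a mouse of its own is not in the labels, so the p-values measure the spread between these libraries. In whole tissue, fewer cells of a type and less RNA per cell cannot be told apart.

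The 6 libraries held 15573405 to 16661784 counted reads, and no pair of libraries agreed within sampling noise. Sham replicate 1 stood apart: 11.9% of its counts came from mitochondrial genes, against 5.52 to 6.26% in the other sham libraries, and its correlations with them were 0.950 and 0.956 against 0.989 between those 2. It lay 2-fold or more from both other sham libraries for 1257 tested genes (11%), while the same count was 174 to 300 for the other 5 libraries. List medians are given also without it where they moved by 0.1 or more and by over 1.5 times or changed sign. Hepatocyte markers were abundant in every library: their 12 genes made up 9.93 to 10.8% of counts in sham and 9.64 to 10.8% at 3 h, and albumin (Alb) was 27610, 25280 and 22880 FPKM in sham and 28070, 26250 and 31140 FPKM at 3 h, with a difference of 0.13 ± 0.13 that was not called (edgeR adjusted p = 0.527).

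At 3 h, 1123 genes were called higher (9.81% of those tested) and 1345 lower (11.7%), and the median difference of all tested genes was -0.02. A change of 2-fold or more was found for 577 of the higher genes (5.04% of those tested) and 602 of the lower genes (5.26%). The scaling between libraries bears on this balance. With TMM scaling 45.5% of the calls were higher, but with plain library totals the median of all genes shifted to -0.20, and 782 genes were called higher and 2346 lower, so that 25% of the calls were higher. With library totals 17 of the 46 gene lists with a median difference above 0 had one below 0, the highest of them at 0.18 under TMM, so list medians of that size have no settled sign. Counts of called members moved as well, also in some lists for which the counts with library totals are not printed. The 3 h libraries lay wholly above sham for 18.9% of tested genes and wholly below it for 17.5%. Of the tested genes 557 were under 1 FPKM in every sham library, 195 of them called higher, and 762 were under it in every 3 h library, 288 of them called lower. The 557 entered the test only through libraries taken after resection, so list counts of rises that include them are weaker support. Osmr, Lepr, Plaur, Inhbb, Klf4, Dusp8 and Lcn2, described below, are among the 557.

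In transcript output the 2 directions were unequal. Called-higher genes held 9.66 to 11.8% of counts in sham and 21.9 to 24.0% at 3 h, and called-lower genes 7.45 to 8.32% and 3.69 to 3.96%. Sums of FPKM also move with the authors' scaling, since all genes together summed to 385634 to 404144 FPKM in sham and 447114 to 487012 at 3 h. The called-higher genes gained 54866 FPKM in sum, 46.84% of it in 10 genes, and 68 of them gained more than 100 FPKM each. The called-lower genes together fell by 7957 FPKM, 21.12% of it in 10 genes, and 12 of them lost more than 100 FPKM. The 10 largest gains belonged to secreted proteins and metallothionein 1: Hpx, Hp, Serpina3k, Mt1, Fga, Fgg, Serpina3n, Fgb, Orm1 and Lrg1. Genes with large rises were compact, while among falls only those of 4-fold or more were. Protein-coding genes called higher by 2-fold or more (507) had a median genomic span of 17.26 kb and 8 exon blocks. Those called lower by 2-fold or more (462) had 29.54 kb and 10. Protein-coding genes called higher by 4-fold or more (169) had a median genomic span of 12.84 kb and 6 exon blocks, and those called lower by 4-fold or more (57) 18.13 kb and 6. Over all tested protein-coding genes the values were 22.54 kb and 9, over the 1041 called higher 21.69 kb and 9, and over the 1180 called lower 33.81 kb and 11.

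**Figure D1:**
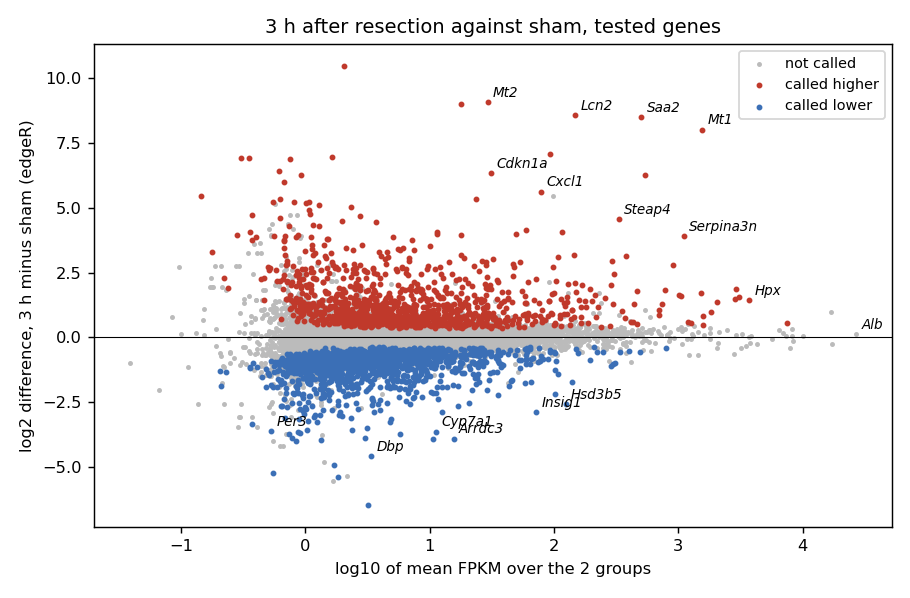
Log10 of the mean FPKM of the 2 groups (x axis) against the log2 difference of 3 h over sham (y axis) for the tested genes. Red points are the 1123 genes called higher, blue points the 1345 called lower and grey points those not called, with a few named genes labelled.

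The receptors that hear interleukin 6 type cytokines were among the early risers. Oncostatin M receptor (Osmr), which pairs with the shared signalling chain gp130 (Il6st), stood at 0.262, 0.257 and 0.202 FPKM in sham and 1.23, 1.77 and 1.43 FPKM at 3 h. It rose by 2.58 ± 0.23 (edgeR adjusted p = 8.32e-06), and its groups were far apart. The leptin receptor (Lepr), of the same receptor class, rose by 2.25 ± 0.38, from 0.325 ± 0.0954 to 1.58 ± 0.304 FPKM. Osmr and Lepr were under 1 FPKM in every sham library and so were tested through libraries taken after resection. Stat3, the transcription factor these receptors activate, was 9.68, 10.5 and 10.3 FPKM in sham and 31.1, 29.7 and 29 FPKM at 3 h and rose by 1.52 ± 0.12 (edgeR adjusted p = 2.99e-06). The interleukin 6 receptor chain Il6ra (1.15 ± 0.25), Il6st (0.68 ± 0.16) and the kinase Jak1 (0.62 ± 0.14) rose by less. Other receptors of the family went the opposite way. The LIF receptor (Lifr) fell from 49.9 ± 3.66 to 25.1 ± 7.36 FPKM (-1.03 ± 0.20), and the interleukin 22 receptor Il22ra1 fell from 1.33 ± 0.373 to 0.289 ± 0.216 FPKM (-2.20 ± 0.46). In all, 6 of 14 tested members were called higher and 4 lower, with a median log2 difference of 0.25. The other calls were those of Jak2, down by 0.85 on the log2 scale but by 0.55 without sham replicate 1 and not called without 3 h replicate 1 or 3 (edgeR adjusted p = 0.056 and 0.077), and Tyk2, whose groups overlapped and whose call was lost without sham replicate 2 or 3 h replicate 2 (0.052 and 0.051). The ligands Il6, Il11, Osm, Lif, Clcf1 and Cntf were all too low in whole liver to be tested.

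Socs3, which STAT3 induces and which shuts the same receptors down, had the strongest feedback response. It was 0.692, 3.53 and 2.05 FPKM in sham and 37, 32.5 and 31.2 FPKM at 3 h, a rise of 3.96 ± 0.40 with no overlap (edgeR adjusted p = 1.88e-05). Of the SOCS family, 1 of 7 tested members was called higher and 0 (edgeR; 0 at an unadjusted p under 0.05, 0 by DESeq2 and 0 by limma voom) lower, with a median log2 difference of 0.18 (0.30 without sham replicate 1). The promoter of Socs3 and that of Steap4, an acute phase metalloreductase described with the metals below, are shown because both genes rose strongly and both windows hold the STAT letters TTCNNNGAA, printed in capitals. They are the 250 bases before the RefSeq transcription start on GRCm38.p6, 5′ to 3′ on the gene's strand, with Socs3 at chr11:117969367-117969616, minus strand and Steap4 at chr5:7960222-7960471, plus strand.
Socs3: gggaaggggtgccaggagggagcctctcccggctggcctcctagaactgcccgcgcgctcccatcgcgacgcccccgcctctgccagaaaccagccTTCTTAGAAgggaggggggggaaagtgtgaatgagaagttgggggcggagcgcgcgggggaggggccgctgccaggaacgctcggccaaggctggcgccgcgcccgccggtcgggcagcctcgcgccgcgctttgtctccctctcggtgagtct
Steap4: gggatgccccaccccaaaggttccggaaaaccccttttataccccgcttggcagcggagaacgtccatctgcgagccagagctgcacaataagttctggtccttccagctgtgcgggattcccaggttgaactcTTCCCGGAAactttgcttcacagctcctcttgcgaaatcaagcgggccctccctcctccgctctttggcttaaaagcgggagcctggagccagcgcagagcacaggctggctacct
The match begins 154 bases before the start in Socs3 and 116 bases before it in Steap4. Searched on both strands, these letters stand in 1940 of 27025 mouse promoter windows of the same length (7.18%). A match describes the letters and is not evidence of a bound site.

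Genes of the interleukin 1 and TNF systems rose on the receptor side, and none of the list was called lower with TMM scaling. The interleukin 1 receptor Il1r1 stood at 7.25, 4.51 and 5.22 FPKM in sham and 73, 102 and 105 FPKM at 3 h and rose by 4.0 ± 0.30 (edgeR adjusted p = 2.59e-06). The TWEAK receptor Tnfrsf12a, which has a known role in liver growth, was 0.609, 3.92 and 3.12 FPKM in sham and 15.2, 16.4 and 18.5 FPKM at 3 h and rose by 2.65 ± 0.41. TNF receptor 1 (Tnfrsf1a) rose from 24.1 ± 5.08 to 85.9 ± 10.2 FPKM (1.79 ± 0.17), TNF receptor 2 (Tnfrsf1b) by 1.03 ± 0.23, the adaptor Myd88 by 1.77 ± 0.18 and the kinase Irak4 by 0.90 ± 0.14. The interleukin 1 receptor antagonist Il1rn, which blocks that receptor, rose by 2.12 ± 0.38 but stayed low, at 0.836, 1.78 and 1.26 FPKM. Over the list, 9 of 18 tested members were called higher and 0 (edgeR; 0 at an unadjusted p under 0.05, 0 by DESeq2 and 0 by limma voom) lower, with a median log2 difference of 0.51. With library totals 8 of the list were called higher and 1 lower. The call of Ripk1 (0.61) was lost in 4 of the 6 fits that leave out a library, and that of Irak2 (1.0) without 3 h replicate 2. The ligands Il1b (0.37 ± 0.49), Il1a (-0.33 ± 0.32) and Il18 (-0.27 ± 0.19) were not called, and Tnf was too low to be tested.

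Among chemokines the neutrophil attractant Cxcl1 dominated. It was 6.0, 2.06 and 1.14 FPKM in sham and 186, 132 and 144 FPKM at 3 h, with a difference of 5.62 ± 0.63 (edgeR adjusted p = 4.73e-05), and its lowest 3 h library lay far above the highest sham library. The monocyte attractant Ccl2 rose by 2.52 ± 0.47 to 2.22, 2.55 and 0.979 FPKM, and Ccl6 rose by 2.95 ± 0.24 to 12.3, 15.3 and 8.88 FPKM. Ccl7, a relative of Ccl2, had 2 reads in all of sham and 78 at 3 h, a ratio of 40.2 per library total with a 95% counting interval of 10.77 to 338.1. Cxcl12, made by stromal cells, fell from 27.2 ± 3.91 to 17.4 ± 1.39 FPKM (-0.69 ± 0.14). Over the list, 5 of 13 tested members were called higher and 1 lower, with a median log2 difference of 0.14, and 2 were called lower without sham replicate 1. The fifth rise was that of Cxcl14 (2.49), whose call was lost without 3 h replicate 2 (1.69, edgeR adjusted p = 0.081). Ccl2, Ccl7 and Cxcl14 were under 1 FPKM in every sham library and so were tested through libraries taken after resection. The Cxcl1 promoter, chr5:90890995-90891244, plus strand, is shown because its window holds the NF-kB letters (GGG, any 2 bases, then TTTCC) at 2 places, both in capitals, the first 89 bases before the start and on the opposite strand.
Cxcl1: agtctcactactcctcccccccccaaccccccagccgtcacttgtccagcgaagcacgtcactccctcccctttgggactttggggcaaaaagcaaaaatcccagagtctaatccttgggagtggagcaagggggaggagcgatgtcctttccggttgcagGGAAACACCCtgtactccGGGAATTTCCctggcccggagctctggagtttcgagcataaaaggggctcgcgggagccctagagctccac
These letters stand, on either strand, in 378 of the 27025 promoter windows (1.4%).

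Growth factor genes moved in both directions. The urokinase receptor Plaur, which concentrates the protease that activates HGF, rose from 0.157 ± 0.0857 to 1.02 ± 0.229 FPKM (2.62 ± 0.47), and fibroblast growth factor 1 (Fgf1) from 14.6 ± 1.49 to 33.5 ± 2.75 FPKM (1.16 ± 0.13, edgeR adjusted p = 4.73e-05). The adaptor Grb2 rose by 0.66 ± 0.15. The ErbB receptor Erbb3 was 33.7, 26.9 and 21.1 FPKM in sham and 12, 10.2 and 10.6 FPKM at 3 h and fell by 1.36 ± 0.17 (edgeR adjusted p = 0.000122). Pdgfa (-1.46 ± 0.29), the docking protein Gab1 (-0.96 ± 0.21), and the FGF receptor Fgfr4 (-0.63 ± 0.16) with its co-receptor Klb (-0.99 ± 0.21) also fell. Hgf itself was 1.02, 0.703 and 0.441 FPKM in sham and 1.03, 1.82 and 1.39 FPKM at 3 h and rose by 0.93 ± 0.29 (edgeR adjusted p = 0.0356), while its receptor Met was 15.5, 8.78 and 8.55 FPKM in sham and 6.3, 7.29 and 7.97 FPKM at 3 h and fell by 0.65 ± 0.20 (edgeR adjusted p = 0.0314). Neither of these 2 calls is firm: that of Hgf was lost in 4 of the 6 fits that leave out a library and that of Met in 4, among them the fit without sham replicate 1 (-0.32, edgeR adjusted p = 0.064). Over the list, 6 of 19 tested members were called higher and 7 lower, with a median log2 difference of 0.03 (-0.12 without sham replicate 1), with 3 called higher without 3 h replicate 2 or without 3 h replicate 3. The call of Errfi1 (1.03; 0.65 without sham replicate 1) was lost in 4 of those fits, that of Fgfr1 (0.65) in 3 and that of Vegfa (-0.49) in 4. Plain library totals gave 3 higher and 8 lower over the list. The EGF receptor Egfr (0.49 ± 0.22) was not called with all libraries, but without sham replicate 1 it was (0.79, edgeR adjusted p = 0.00494). The ligands Egf, Hbegf, Areg and Ereg were too low to be tested.

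In the insulin-like growth factor axis the secreted binding protein Igfbp1 led. It was 55.9, 64.5 and 73.4 FPKM in sham and 472, 643 and 439.5 FPKM at 3 h and rose by 2.96 ± 0.30 (edgeR adjusted p = 1.8e-05). The 2 insulin receptor substrates parted: Irs2 was 4.32, 4.38 and 2.68 FPKM in sham and 14.1, 18.3 and 8.64 FPKM at 3 h and rose by 1.82 ± 0.37, while Irs1 was 1.98, 1.72 and 1.42 FPKM in sham and 0.553, 0.497 and 0.442 FPKM at 3 h and fell by 1.81 ± 0.23. Both pairs of groups were separate. Igfbp5 fell by 1.56 ± 0.30, and Igf1, the main secreted growth factor of the axis, did not pass the test (0.02 ± 0.14). Over the list, 4 of 13 tested members were called higher and 3 lower, with a median log2 difference of 0.02 and, with library totals, 2 higher and 3 lower, and 2 were called higher without sham replicate 1, 3 h replicate 1 or 3 h replicate 2. The remaining calls, of Igfbp7, Igfbp3 and Igf2r, were each lost in 3 or more of the fits that leave out a library.

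Of the TGF-beta superfamily, the activin B subunit Inhbb rose the most firmly, 0.332, 0.265 and 0.244 FPKM in sham and 2.03, 2.9 and 2.85 FPKM at 3 h, a difference of 3.16 ± 0.26 (edgeR adjusted p = 4.38e-06). The stress hormone Gdf15 rose by 2.41 ± 0.48, from 1.27, 3.02 and 1.88 FPKM in sham to 5.96, 19.9 and 7.89 FPKM, the middle 3 h library being the highest. The BMP mediator Smad1 (0.86 ± 0.15), the HLH inhibitor Id2 (0.66 ± 0.15) and the type I receptor Acvr1b (0.63 ± 0.14) rose, and the TGF-beta mediators Smad3 (-1.01 ± 0.21) and Smad2 (-0.93 ± 0.22) fell. Over the list, 7 of 29 tested members were called higher and 3 lower, with a median log2 difference of -0.01. Tgfb1 (0.39 ± 0.30) was not called. Leaving out a library lost the call of Id3 (1.35) in 3 of 6 fits and that of Acvr1 (-0.47) in 5.

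Several AP-1 subunits and other immediate early genes rose, with wide spread between libraries for some of them, while others were not called. Junb was 4.12, 21.9 and 10.9 FPKM in sham and 109.6, 68.5 and 73.7 FPKM at 3 h and rose by 2.73 ± 0.43 (edgeR adjusted p = 0.0006). Fos was 0.175, 0.389 and 0.464 FPKM in sham and 8.63, 1.79 and 1.3 FPKM at 3 h: its rise of 3.46 ± 0.75 leaned on 3 h replicate 1, without which it was 2.13. Jun rose by 1.52 ± 0.47, from 1.18, 9.93 and 7.17 FPKM in sham to 16.6, 21.2 and 16.3 FPKM, and its call was lost without any single 3 h library (1.38 to 1.60, edgeR adjusted p = 0.057 to 0.098). The Fos relative Fosl2 rose by 1.72 ± 0.17. Over the AP-1 subunits, 4 of 6 tested members were called higher and 0 (edgeR; 0 at an unadjusted p under 0.05, 0 by DESeq2 and 0 by limma voom) lower, with a median log2 difference of 1.62. Of the called members, Fos was under 1 FPKM in every sham library and so was tested through libraries taken after resection. Atf3 (0.97 ± 0.59) was not called. Egr1 was 17.1, 5.84 and 3.19 FPKM in sham and 40.8, 14.1 and 10.6 FPKM at 3 h, with overlapping groups and no call (1.30 ± 0.60, edgeR adjusted p = 0.151); without sham replicate 1, its highest sham library, it was called at 2.24 (adjusted p = 0.0137). Ier3, an early gene that limits cell death, rose by 2.45 ± 0.57.

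Myc was 0.411, 1.35 and 1.47 FPKM in sham and 3.79, 4.87 and 4.77 FPKM at 3 h. It rose by 2.0 ± 0.40 (edgeR adjusted p = 0.00312), with no overlap between groups. In its partner network Mlx rose by 0.57 ± 0.13, and Mxd4, which competes with MYC for the partner MAX, fell by 0.75 ± 0.14, while Max itself was not called (0.30 ± 0.14). Over the network, 2 of 10 tested members were called higher and 4 lower, with a median log2 difference of -0.37 (-0.24 without sham replicate 1), and 2 were called lower without sham replicate 2, sham replicate 3, 3 h replicate 2 or 3 h replicate 3. The calls of Mnt (-1.20), Mlxipl (-0.80) and Mxi1 (-0.52) were lost in 2, 4 and 3 of the fits that leave out a library.

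Krüppel-like and C/EBP factors also split. Klf4 rose from 0.264 ± 0.121 to 1.52 ± 0.164 FPKM (2.46 ± 0.40), Klf6, a known early gene of liver regrowth, by 1.44 ± 0.26, and Klf2 by 1.30 ± 0.32. Of the KLF and SP factors, 3 of 14 tested members were called higher and 3 lower, with a median log2 difference of -0.21, and 1 was called lower without 3 h replicate 3. That list's falls were Klf16 (-2.13, overlapping groups), Klf11 (-1.12, edgeR adjusted p = 0.075 without 3 h replicate 3, and not called without sham replicate 2 or 3 h replicate 1 either) and Klf12 (-0.91, 0.059 without 3 h replicate 3). Cebpd was 0.22, 1.09 and 2.89 FPKM in sham and 10.3, 12.2 and 14 FPKM at 3 h and rose by 3.06 ± 0.53 (edgeR adjusted p = 0.00122). Cebpa, which restrains hepatocyte division, was 74.5, 186 and 169 FPKM in sham and 65.7, 52.2 and 68.8 FPKM at 3 h and fell by 1.24 ± 0.28. Cebpb, its growth-linked relative, was 9.98, 73 and 107 FPKM in sham and 172, 204 and 203 FPKM at 3 h: sham replicate 1 was the lowest library, and the rise of 1.56 ± 0.52 (edgeR adjusted p = 0.0478) was no longer called without sham replicate 2 or any single 3 h library (1.51 to 1.68). The repressor Nfil3 rose by 1.93 ± 0.18 and the cyclic AMP responder Crem by 0.70 ± 0.12. Over these factors, 6 of 26 tested members were called higher and 4 lower, with a median log2 difference of 0.03 and, with library totals, 3 higher and 8 lower, and 3 were called higher without 3 h replicate 1 or 3 h replicate 3. The calls of Creb3l2 (0.77; 1.16 without sham replicate 1), Mafk (0.54) and Mafg (-0.50) were lost in 5, 3 and 4 of the fits that leave out a library.

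**Figure D2:**
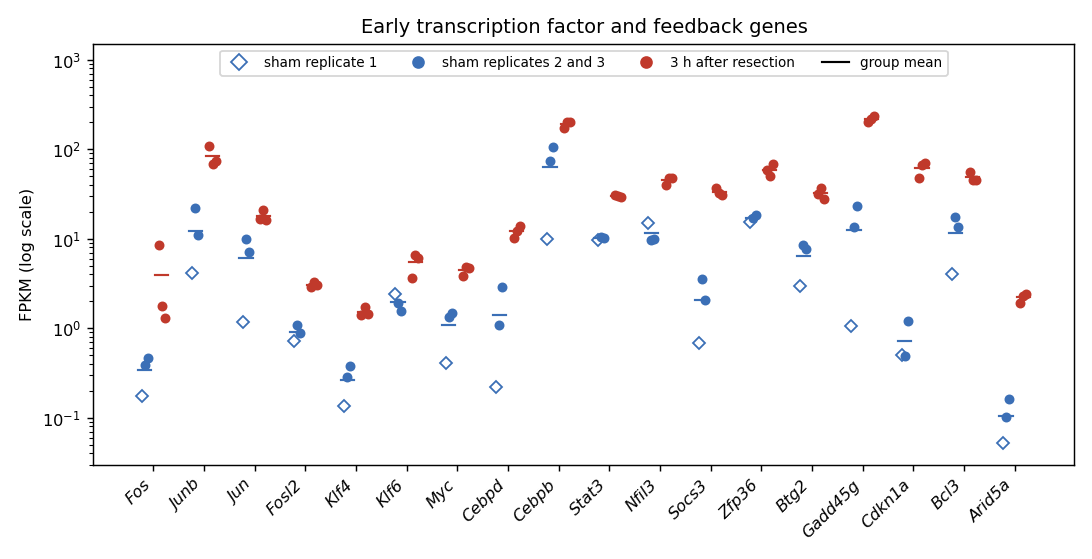
FPKM (log scale) of 18 early transcription factor and feedback genes in each library, with blue symbols for sham (an open diamond for sham replicate 1), red points for 3 h and a short line at each group's mean. Cdkn1a and Socs3 show wide gaps between the groups, while Cebpb, Cebpd and Gadd45g are spread widely in sham, with sham replicate 1 the lowest.

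Factors that hold hepatocyte identity did not move together. Hnf4a, the central hepatocyte regulator, was 71.5, 91.7 and 103 FPKM in sham and 178, 182 and 218 FPKM at 3 h and rose by 1.07 ± 0.15 (edgeR adjusted p = 0.000257), and Gata6 rose by 1.0 ± 0.22. Foxa1 (-0.76 ± 0.17) and, as above, Cebpa (-1.24) fell. Over the list, 2 of 17 tested members were called higher and 4 lower, with a median log2 difference of 0.09 (-0.06 without sham replicate 1). A further call, of Nr0b2 (-0.99), was lost without sham replicate 2, 3 h replicate 2 or 3 h replicate 3 (-0.73 to -0.97). Nuclear receptors leaned downward: 1 of 25 tested members was called higher and 7 lower, with a median log2 difference of -0.41. The mineralocorticoid receptor Nr3c2 (-1.59 ± 0.23), the orphan receptor Nr2f2 (-1.25 ± 0.18) and the thyroid hormone receptor Thra (-0.96 ± 0.22) fell. The glucocorticoid receptor gene Nr3c1 was 17.9, 10.4 and 10.7 FPKM in sham and 6.39, 6.6 and 6.83 FPKM at 3 h and fell by 1.01 ± 0.18 (edgeR adjusted p = 0.00151). The xenobiotic receptor Nr1i2 rose by 0.89 ± 0.22. Without sham replicate 1 or 3 h replicate 3, 2 of these receptors were called higher, and without sham replicate 2, 4 were called lower. The calls of Rara (-0.95) and Pparg (-0.76) were lost in 3 and 5 of the 6 fits, for Pparg also without sham replicate 1.

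Brakes on the same signals rose beside them. The MAP kinase phosphatase Dusp8 rose from 0.404 ± 0.276 to 1.74 ± 0.111 FPKM (2.05 ± 0.44), Dusp3 by 0.77 ± 0.18 and Sprouty 1 (Spry1), an inhibitor of receptor tyrosine kinase signalling, by 1.38 ± 0.33. Dusp1, the best known of the phosphatases, was not called (0.56 ± 0.31). Over this list, 6 of 13 tested members were called higher and 0 (edgeR; 0 at an unadjusted p under 0.05, 0 by DESeq2 and 0 by limma voom) lower, with a median log2 difference of 0.64, and 3 were called higher without sham replicate 2 or 3 h replicate 2. The calls of Dusp6 (0.89) and Spred1 (0.64) were each lost in 4 of the 6 fits, both of those among them. In the fit with library totals 3 of this list were called higher and 0 lower. Among NF-kB genes, Bcl3, a nuclear co-factor, was 4.07, 17.6 and 13.5 FPKM in sham and 56.3, 45.8 and 45.5 FPKM at 3 h and rose by 2.03 ± 0.36 (edgeR adjusted p = 0.00152), and the inhibitors Tnip2 (1.56 ± 0.16), Nfkbib (1.29 ± 0.23) and Nfkbiz (1.08 ± 0.24) rose. The classical inhibitor Nfkbia was not called (0.06 ± 0.30). Over the list, 5 of 17 tested members were called higher and 2 lower, with a median log2 difference of 0.06. The falls, Birc3 (-0.72) and Cyld (-0.60), were both lost without sham replicate 1, 3 h replicate 1 or 3 h replicate 3, leaving 0 called lower in each of these fits, and 1 was called lower without sham replicate 2 or 3 h replicate 2. The rise of Rela (0.64) was lost without sham replicate 1 (0.41, edgeR adjusted p = 0.093) and without 3 h replicate 2 or 3.

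Factors that destroy short-lived mRNAs changed at the same time. Zfp36 (tristetraprolin), which removes cytokine mRNAs, was 15.6, 17 and 18.4 FPKM in sham and 58.8, 50.5 and 68.5 FPKM at 3 h and rose by 1.76 ± 0.17 (edgeR adjusted p = 1.17e-05). Its relative Zfp36l1 rose by 0.81 ± 0.18. Of the antiproliferative BTG/TOB proteins, which recruit the deadenylase, Btg2 was 2.98, 8.59 and 7.72 FPKM in sham and 31.4, 36.8 and 28 FPKM at 3 h and rose by 2.27 ± 0.31, while Tob1 was 41.9, 89.5 and 72.8 FPKM in sham and 25.9, 19.5 and 21.1 FPKM at 3 h and fell by 1.66 ± 0.23; neither pair of groups overlapped. The deadenylase subunit Cnot8 fell by 0.62 ± 0.12. Over the list, 5 of 21 tested members were called higher and 4 lower, with a median log2 difference of -0.15 (0.04 without sham replicate 1) and, with library totals, 4 higher and 8 lower. Without sham replicate 2 or 3 or 3 h replicate 2 or 3, 3 were called higher, and without 3 h replicate 1, 2 were called lower. The calls that came and went were of Btg3 (1.13), Elavl1 (0.39), Cnot1 (-0.62; -0.40 without sham replicate 1) and Cnot7 (-0.62; -0.37 and not called without it).

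Inhibitors of the cell cycle were among the strongest responders. Cdkn1a (p21), which blocks cyclin-dependent kinases, was 0.497, 0.484 and 1.2 FPKM in sham and 48.1, 67 and 69.8 FPKM at 3 h and rose by 6.35 ± 0.34 (edgeR adjusted p = 1.47e-07). Gadd45g, a stress-induced growth arrest gene, was 1.05, 13.4 and 23.4 FPKM in sham and 200.4, 220.0 and 233 FPKM at 3 h and rose by 4.06 ± 0.64, and Gadd45a rose by 1.38 ± 0.32. Cdkn1b (p27) was 7.26, 5.26 and 4.55 FPKM in sham and 3.12, 2.76 and 2.65 FPKM at 3 h and fell by 1.04 ± 0.20, and Cdkn2c (p18) fell by 1.36 ± 0.26. Over these inhibitors, 4 of 7 tested members were called higher and 2 lower, with a median log2 difference of 1.38. The call of Gadd45b (1.97) was lost without sham replicate 3 or 3 h replicate 3 (edgeR adjusted p = 0.051 and 0.095). The list of p53 targets did not follow Cdkn1a as a group: 5 of 19 tested members were called higher and 3 lower, 2 of each by 2-fold or more. The median log2 difference was 0.0 and, with library totals, 3 were called higher and 6 lower. Mdm2 (-0.08 ± 0.17) and Bax (0.35 ± 0.31) were not called, Fas rose by 0.88 ± 0.20, Aen by 0.79 ± 0.20, and Sesn1 fell by 1.31 ± 0.24. The calls of Plk2 (-0.92) and Trp53inp2 (0.72) were both lost without sham replicate 1 (edgeR adjusted p = 0.16 and 0.076) and in 4 and 3 of the other 5 fits.

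Cyclin D1 (Ccnd1), whose induction marks commitment to G1 progression, was 1.7, 4.32 and 3.3 FPKM in sham and 6.27, 8.03 and 6.34 FPKM at 3 h and rose by 1.10 ± 0.30 (edgeR adjusted p = 0.0197), a call lost without 3 h replicate 2 (0.97, edgeR adjusted p = 0.073). The kinases Cdk2 (-0.98 ± 0.18) and Cdk6 (-0.82 ± 0.17) and the E2F partner Tfdp2 (-0.77 ± 0.19) fell. Over G1 cyclins, E2F and RB family genes, 4 of 19 tested members were called higher and 6 lower, with a median log2 difference of -0.30 and, with library totals, 1 higher and 7 lower. Only 1 was called higher without 3 h replicate 2, and 3 were called lower without 3 h replicate 3. Few genes of DNA replication passed the test: 1 of 23 tested members was called higher and 1 lower, with a median log2 difference of -0.14 and, with library totals, 1 higher and 3 lower. The ribonucleotide reductase subunit Rrm2 rose by 1.85 ± 0.37, and the clamp loader subunit Rfc1 fell by 0.68 ± 0.17. Pcna (-0.08 ± 0.23) and Mcm5 (0.13 ± 0.40) were not called, and Mki67, Ccnb1 and Cdk1, markers of dividing cells, were too low to be tested.

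In the BCL2 family a survival gene rose and death-promoting genes fell. Bcl2l1, which encodes the survival protein Bcl-xL, was 3.59, 7.2 and 5.85 FPKM in sham and 19.7, 22.7 and 38.5 FPKM at 3 h and rose by 2.23 ± 0.30 (edgeR adjusted p = 0.000185). The death-promoting BH3-only genes Bbc3 (PUMA), 3.13, 6.02 and 4.65 FPKM in sham and 1.07, 0.465 and 0.524 FPKM at 3 h, and Bmf, 1.93, 1.65 and 1.74 FPKM in sham and 0.399, 0.188 and 0.212 FPKM at 3 h, fell (-2.77 ± 0.39 and -2.76 ± 0.40), and Bid fell by 0.98 ± 0.22. Mcl1, a further survival gene, was not called (0.26 ± 0.14). Over the family, 1 of 13 tested members was called higher and 5 lower, with a median log2 difference of -0.43. The falls of Bik (-1.58) and Bok (-0.87) were lost without sham replicate 2 or 3 or any single 3 h library, which left 3 called lower in each of these 5 fits.

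**Figure D3:**
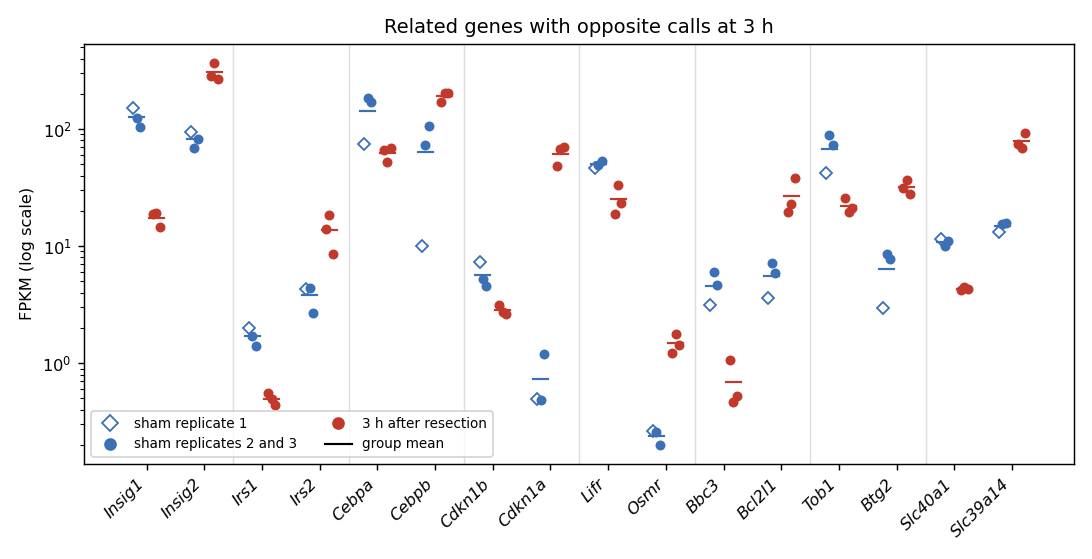
FPKM (log scale) in each of the 6 libraries for 8 pairs of related genes called in opposite directions, blue for sham (an open diamond for sham replicate 1) and red for 3 h, with a short line at each group's mean. The pairs were picked after their values were seen, and the Cebpb call is lost without some single libraries; in the other 15 genes no 3 h library lies within the sham range.

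Of the lists in the plot of percent called by list, that of acute phase genes held the largest share of rises: 28 of 33 tested members were called higher and 0 (edgeR; 0 at an unadjusted p under 0.05, 0 by DESeq2 and 0 by limma voom) lower, with a median log2 difference of 1.82. Lipocalin 2 (Lcn2), which takes up bacterial iron carriers, was 0.426, 0.82 and 0.971 FPKM in sham and 187, 280.0 and 424 FPKM at 3 h and rose by 8.59 ± 0.45. Serum amyloid A2 (Saa2) was 1.22, 4.23 and 2.54 FPKM in sham and 1092, 751 and 1162 FPKM at 3 h and rose by 8.51 ± 0.43, Saa1 by 6.28 ± 0.43 and Saa3 by 2.49 ± 0.49; counts of the near-identical Saa1 and Saa2 may have been split between them. Serpina3n, a secreted protease inhibitor with close paralogues, was 147, 126 and 129 FPKM in sham and 1796, 2059 and 2378 FPKM at 3 h and rose by 3.91 ± 0.18 (edgeR adjusted p = 1.17e-07). Lrg1, a leucine-rich plasma glycoprotein, was 109, 284 and 279.8 FPKM in sham and 1394, 1837 and 1522 FPKM at 3 h, a rise of 2.78 ± 0.30. The pentraxin Apcs, the main mouse acute phase pentraxin, rose from 90.4 ± 14.8 to 513 ± 92.7 FPKM (2.47 ± 0.18), and Lbp, which presents bacterial lipopolysaccharide, from 13.2 ± 2.01 to 49.4 ± 4.19 FPKM (1.86 ± 0.16). The fibrinogen chains rose in step, Fga by 1.55 ± 0.14, Fgb by 1.35 ± 0.13 and Fgg by 1.49 ± 0.14. The carriers haptoglobin (Hp, 1.88 ± 0.20), hemopexin (Hpx, 1.43 ± 0.18) and orosomucoid 1 (Orm1, 1.73 ± 0.17) and the inter-alpha-trypsin inhibitor chains Itih3 (1.8 ± 0.15) and Itih4 (1.82 ± 0.16) rose too. A2m had 18 reads in sham and 385 at 3 h, a ratio of 22.1 (95% counting interval 13.78 to 37.63). Within the list Crp (0.53 ± 0.22) and Cp (0.24 ± 0.23) were not called. Crp was called higher without sham replicate 1, at 0.89 (edgeR adjusted p = 0.000871).

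Of the genes of proteins known to decline in an acute phase response none was called lower at 3 h: 2 of 16 tested members were called higher and 0 (edgeR; 1 at an unadjusted p under 0.05, 0 by DESeq2 and 0 by limma voom) lower, with a median log2 difference of 0.17. With library totals 1 of them was called higher and 1 lower, and without both sham replicate 1 and the third 6 h library 2 and 1. Transthyretin (Ttr) was 3007, 3989 and 4184 FPKM in sham and 4202, 3193 and 4424 FPKM at 3 h and was not called (0.04 ± 0.16, edgeR adjusted p = 0.895), and its sign turned without sham replicate 1 (-0.10) or 3 h replicate 3 (-0.04). Serpina7, the thyroxine carrier, rose by 1.56 ± 0.35. The other rise, of Apoa4 (1.34), had overlapping groups and was lost without sham replicate 1 (1.05), sham replicate 2, 3 h replicate 2 or 3 h replicate 3 (2.09 without sham replicate 3), so that 1 member was called higher without sham replicate 2, 3 h replicate 2 or 3 h replicate 3. Of complement and clotting genes, 4 of 41 tested members were called higher and 3 lower, against 9.81% and 11.7% of all tested genes. The median log2 difference was 0.06 and, with library totals, 1 was called higher and 7 lower. The contact factors F11 (-0.88 ± 0.21) and Klkb1 (-0.87 ± 0.17) fell. Without 3 h replicate 1, 2 of these were called higher and without 3 h replicate 2 0 of 41, C3 (0.59) then standing at 0.48 (edgeR adjusted p = 0.053), Mbl1 (0.46) at 0.48 (0.051), C1qb (0.65) at 0.61 (0.073) and Cfd (2.08, overlapping groups) at 1.58 (0.15). The fall of Serpind1 (-0.38) was lost in 5 of the 6 fits that leave out a library.

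Handling of zinc and iron changed on both the uptake and the export side. Metallothioneins bind zinc; Mt1 was 3.4, 15 and 16.4 FPKM in sham and 2771, 2770 and 3758 FPKM at 3 h and rose by 8.01 ± 0.50 (edgeR adjusted p = 5.15e-07). Mt2 had 3 reads in sham and 1581 at 3 h, a ratio of 544 per library total (95% counting interval 185.7 to 2639); the 2 genes are close copies. The zinc importer Slc39a14 was 13.1, 15.4 and 15.9 FPKM in sham and 74.7, 69.2 and 92.6 FPKM at 3 h and rose by 2.37 ± 0.22, and the manganese exporter Slc30a10 rose by 1.07 ± 0.17. The iron reductase Steap4 was 29.2, 23.3 and 25.2 FPKM in sham and 519, 724 and 663 FPKM at 3 h, a rise of 4.58 ± 0.24, while its relative Steap3 fell by 1.06 ± 0.21. Hepcidin (Hamp), the hormone that blocks iron export, was 1023, 1191 and 1408 FPKM in sham and 1735, 2287 and 3390 FPKM at 3 h and rose by 0.99 ± 0.20. Its target, the iron exporter ferroportin (Slc40a1), was 11.5, 10.01 and 11.1 FPKM in sham and 4.2, 4.47 and 4.29 FPKM at 3 h and fell by 1.37 ± 0.20 (edgeR adjusted p = 0.00035). Heme oxygenase 1 (Hmox1) rose from 6.48 ± 2.78 to 50.03 ± 10.9 FPKM (2.90 ± 0.42). Over the list, 9 of 28 tested members were called higher and 3 lower, with a median log2 difference of 0.27. The transferrin receptor Tfrc (1.29) was no longer called without 3 h replicate 1 (0.81, edgeR adjusted p = 0.055), and the calls of Slc30a1 (-0.55) and Hfe (0.49) were each lost in 4 of the 6 fits, for Slc30a1 also without sham replicate 1 (-0.46, 0.053).

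Genes of insulin and FOXO action moved strongly in both directions. The arrestin Arrdc3 was 47, 27 and 13.8 FPKM in sham and 2.6, 2.12 and 1.27 FPKM at 3 h and fell by 3.90 ± 0.39 (edgeR adjusted p = 1.68e-05). Foxo3, a transcription factor that insulin switches off, was 6.79, 7.89 and 9.09 FPKM in sham and 2.29, 1.76 and 2.52 FPKM at 3 h and fell by 1.90 ± 0.18, the insulin antagonist Trib3 fell by 3.02 ± 0.39, and Sesn3 (-1.52 ± 0.25). Trib1, a relative of Trib3, rose by 1.25 ± 0.26. Pfkfb3, which makes the activator of glycolysis, rose from 0.818 ± 0.406 to 8.26 ± 2.89 FPKM (3.28 ± 0.44), the liver form Pfkfb1 rose by 0.98 ± 0.18 and pyruvate carboxylase (Pcx), which starts gluconeogenesis, by 0.75 ± 0.14. The classical gluconeogenic genes were less clear. Pck1 was 180.5, 488 and 589 FPKM in sham and 796, 706 and 768 FPKM at 3 h and was not called (0.81 ± 0.30, edgeR adjusted p = 0.0766), but without sham replicate 1, its lowest library, it was called at 0.44 (adjusted p = 0.038), and without sham replicate 3 at 1.14 (0.021). G6pc (0.18 ± 0.46) and Ppargc1a (-0.15 ± 0.32) were not called. Over the list, 7 of 31 tested members were called higher and 7 lower, with a median log2 difference of 0.05 and, with library totals, 7 higher and 10 lower. The calls of Arrdc2 (-1.21), Arrdc4 (1.38) and Pdk2 (-0.56) had overlapping groups and were each lost without sham replicate 3, 3 h replicate 1 or 3 h replicate 2, the last 2 genes also without sham replicate 2.

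Many genes known to be induced by glucocorticoids rose, although the receptor gene fell: 14 of 26 tested members were called higher and 1 lower, with a median log2 difference of 1.54. This list holds Lcn2, Mt1, Mt2 and Cdkn1a, which also respond to cytokines or stress. Fkbp5, the receptor's own co-chaperone, was 0.721, 1.64 and 1.41 FPKM in sham and 16.7, 17.7 and 30.8 FPKM at 3 h and rose by 4.06 ± 0.34 (edgeR adjusted p = 4.57e-06), and Zbtb16 rose from 1.74 ± 0.342 to 11.2 ± 1.16 FPKM (2.65 ± 0.28). The kinase Sgk1 rose by 1.52 ± 0.22. Per1 (0.60 ± 0.60), Dusp1, Tsc22d3 (-0.73 ± 0.47) and Pdk4 (2.10 ± 1.15; -1.18 without 3 h replicate 2) were targets without a call. Of the called members Ddit4 (2.08) lost its call without 3 h replicate 3 (1.40, edgeR adjusted p = 0.078).

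Several genes of lipid droplets rose. Plin5, a lipid droplet coat protein of oxidative cells, was 5.78, 12.1 and 18.4 FPKM in sham and 75.1, 94.4 and 111 FPKM at 3 h and rose by 2.90 ± 0.35 (edgeR adjusted p = 9.28e-05), and Plin2, the main coat protein in hepatocytes, was 65.3, 135 and 131 FPKM in sham and 263, 758 and 377 FPKM at 3 h, a rise of 2.03 ± 0.41. Plin4 rose by 2.84 ± 0.47, Cidec, which fuses droplets, by 2.47 ± 0.60 and the lipase Pnpla2 by 1.06 ± 0.24. The phosphatase Lpin1, which makes diacylglycerol, was 5.91, 5.76 and 9.01 FPKM in sham and 31.9, 14.6 and 82.2 FPKM at 3 h, with widely spread 3 h values, all above sham (2.58 ± 0.52). Over the list, 8 of 26 tested members were called higher and 1 lower, with a median log2 difference of 0.23. Lower calls numbered 3 without sham replicate 1 and 2 without 3 h replicate 1 or 2. The call of Hilpda (2.55), whose 3 h libraries were at 3.52, 20.3 and 4.42 FPKM, and that of Mgll (0.94) were lost without 3 h replicate 2 (1.30 and 0.80, edgeR adjusted p = 0.091 and 0.066). Angptl4 (1.30 ± 0.57) was not called. Of fatty acid oxidation genes, 7 of 39 tested members were called higher and 0 (edgeR; 0 at an unadjusted p under 0.05, 0 by DESeq2 and 0 by limma voom) lower, with a median log2 difference of 0.25. Of them 2 were called higher without sham replicate 2, 3 h replicate 2 or 3 h replicate 3, and without sham replicate 1, 1 was called lower. Scaled by library totals, 3 were called higher and 0 lower.

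Cholesterol synthesis held the largest share of falls among those lists: 1 of 29 tested members was called higher and 17 lower, with a median log2 difference of -0.93, and 13 of the falls were 2-fold or more. Falls numbered 15 without sham replicate 1 or 3 h replicate 1. They numbered 13 without 3 h replicate 2 and 12 without 3 h replicate 3. Insig1, which holds SREBP in the endoplasmic reticulum and is itself a target of it, was 151, 123 and 104 FPKM in sham and 18.8, 19 and 14.7 FPKM at 3 h and fell by 2.89 ± 0.26 (edgeR adjusted p = 8.34e-06). Its relative Insig2, which is controlled differently, was 93.5, 68.2 and 83 FPKM in sham and 284, 366 and 268 FPKM at 3 h and rose by 1.87 ± 0.26. Along the pathway Hmgcs1 (-1.75 ± 0.37), Mvk (-1.13 ± 0.21), Mvd (-1.99 ± 0.37), Fdft1 (-1.11 ± 0.24) and Sc5d (-1.41 ± 0.22) fell. The sterol carrier Stard4 (-1.91 ± 0.19) fell too. Srebf1, the lipogenic SREBP gene, fell from 37.9 ± 6.08 to 11.7 ± 2.18 FPKM (-1.74 ± 0.23), while Srebf2, the gene of the sterol-responsive factor, was not called (-0.05 ± 0.15). Sqle (-0.26 ± 0.25) and Dhcr7 (-0.20 ± 0.20) were not called. The Hmgcs1 promoter, chr13:119690101-119690350, plus strand, is shown because it holds the sterol element letters TCACNCCAC, in capitals, from 137 bases before the start.
Hmgcs1: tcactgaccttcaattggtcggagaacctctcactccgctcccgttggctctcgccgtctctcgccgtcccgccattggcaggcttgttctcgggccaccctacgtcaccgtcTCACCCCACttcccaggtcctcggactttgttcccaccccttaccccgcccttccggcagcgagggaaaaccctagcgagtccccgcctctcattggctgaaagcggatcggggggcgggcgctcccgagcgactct
These letters stand, on either strand, in 280 of the 27025 windows (1.04%). Hmgcs1 itself was 146, 67.8 and 57 FPKM in sham and 37.5, 21.1 and 24 FPKM at 3 h, with sham replicate 1 highest, and the 3 h libraries all lay below sham.

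Bile acid genes also leaned downward. Cyp7a1, which sets the rate of bile acid synthesis, was 39.6, 9.61 and 13.6 FPKM in sham and 2.01, 0.71 and 2.44 FPKM at 3 h and fell by 3.65 ± 0.60 (edgeR adjusted p = 0.000856). The uptake transporter Slc10a1 was 308, 250.1 and 231 FPKM in sham and 189.9, 179 and 177 FPKM at 3 h and fell by 0.57 ± 0.14, and the canalicular exporter Abcc2 fell by 0.82 ± 0.15. Abcb11, the bile salt export pump, was not called (-0.34 ± 0.17). Over the list, 1 of 25 tested members was called higher and 8 lower, with a median log2 difference of -0.50 (-0.27 without sham replicate 1), with 5 lower without 3 h replicate 2 or 3. The rise, of Baat (0.56), was lost without sham replicate 2, sham replicate 3 or 3 h replicate 3, leaving 0 higher. Scaled by library totals, 0 of the list were called higher and 14 lower. Slco1b2 (-0.86) stood at -0.41 without sham replicate 1, and it and Abcg8 (-0.94) were not called without any single 3 h library.

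Amino acid breakdown and nitrogen disposal rose at several steps: 13 of 41 tested members were called higher and 0 (edgeR; 1 at an unadjusted p under 0.05, 0 by DESeq2 and 0 by limma voom) lower, with a median log2 difference of 0.17. With library totals 12 of them were called higher and 2 lower. Tyrosine aminotransferase (Tat) was 369, 531 and 624 FPKM in sham and 1338, 1377 and 2009 FPKM at 3 h and rose by 1.59 ± 0.25 (edgeR adjusted p = 0.000698). Mat1a, which makes S-adenosylmethionine, was 536, 446 and 469.9 FPKM in sham and 1464, 1354 and 1843 FPKM at 3 h, a rise of 1.64 ± 0.17, and Bhmt, in the same cycle, rose by 1.06 ± 0.20. The lysine enzyme Aass (1.74 ± 0.26), the serine enzymes Sds (2.03 ± 0.38) and Sdsl (1.95 ± 0.25) and the aminotransferases Got1 (1.46 ± 0.19) and Gpt2 (0.96 ± 0.18) rose. Of the urea cycle proper, Asl (1.35 ± 0.22) and Arg1 (0.87 ± 0.14) rose, and Cps1 (0.11 ± 0.24) and Ass1 (0.40 ± 0.18) were not called. Cth (0.79) lost its call without sham replicate 3 or 3 h replicate 3 (edgeR adjusted p = 0.055 and 0.09), and 1 member was called lower without sham replicate 1 or sham replicate 3. Of amino acid transporters, 4 of 14 tested members were called higher and 2 lower, with a median log2 difference of 0.05; Slc38a2 rose by 1.25 ± 0.23, Slc16a10 by 0.95 ± 0.17, Slc43a1 by 0.87 ± 0.17 and Slc3a1 by 0.81 ± 0.20, and the taurine carrier Slc6a6 fell by 1.13 ± 0.18. The fall of Slc38a7 (-0.66) was lost without 3 h replicate 1 (-0.56, edgeR adjusted p = 0.063), leaving 1 lower.

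Genes of ribosome assembly rose, while few of those of the ribosome itself passed the test. Of ribosome biogenesis genes, 28 of 59 tested members were called higher and 1 lower, with a median log2 difference of 0.47. The processing factor Rrp12 was 0.736, 1.43 and 1.22 FPKM in sham and 2.98, 3.87 and 3.56 FPKM at 3 h and rose by 1.58 ± 0.24 (edgeR adjusted p = 0.000495), Rrs1 by 1.52 ± 0.23, Nop58, which guides rRNA methylation, by 1.44 ± 0.20, Heatr1 by 1.40 ± 0.22 and Nolc1 by 1.26 ± 0.17. Without 3 h replicate 2, 18 were called higher and without 3 h replicate 3, 17, and the call of the lower member was lost without sham replicate 2 or any single 3 h library. Scaling by library totals left 19 called higher and 1 lower. Fbl (0.23 ± 0.19), an abundant nucleolar protein, was not called. The ribosomal proteins themselves, 0.785 to 1.31% of counts in sham and 1.01 to 1.27% at 3 h, stood apart from them in calls: 1 of 79 tested members was called higher and 0 (edgeR; 0 at an unadjusted p under 0.05, 0 by DESeq2 and 0 by limma voom) lower, with a median log2 difference of 0.28 (0.07 without sham replicate 1), and that call, of Rpl7l1 (0.39), was lost without sham replicate 2 or any single 3 h library, leaving 0. Translation factors and tRNA synthetases lay between: 9 of 54 tested members were called higher and 0 (edgeR; 1 at an unadjusted p under 0.05, 1 by DESeq2 and 1 by limma voom) lower, with a median log2 difference of 0.25. With library totals 4 of them were called higher and 2 lower. Eif6 (0.94 ± 0.21), Eif2b4 (0.87 ± 0.15) and Eif4a1 (0.67 ± 0.14) rose. The count of higher calls there was 14 without sham replicate 1, with 1 lower, and 5 without 3 h replicate 2. Odc1, the rate-limiting enzyme of polyamine synthesis and an early growth gene, was not called (0.27 ± 0.14).

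Many cytoskeletal genes rose, led by cytoplasmic actins and tubulins. Actg1 was 15.1, 34 and 26.6 FPKM in sham and 162, 263 and 91.1 FPKM at 3 h and rose by 2.73 ± 0.37 (edgeR adjusted p = 0.000217), and Actb was 108, 147 and 138 FPKM in sham and 363, 494 and 290.2 FPKM at 3 h, a rise of 1.51 ± 0.20; the 2 genes are close copies with processed pseudogenes. Tubb6 rose from 4.65 ± 1.13 to 25.9 ± 4.29 FPKM (2.43 ± 0.19), Tubb2a by 1.46 ± 0.28, and the hepatocyte keratins Krt8 (1.17 ± 0.20) and Krt18 (1.18 ± 0.19) nearly equally. The actin cross-linker Flna (1.14 ± 0.19) and non-muscle myosin Myh9 (1.11 ± 0.19) rose. Over the list, 17 of 36 tested members were called higher and 2 lower, with a median log2 difference of 0.49, with 10 higher without 3 h replicate 2. The lower calls numbered 0 without sham replicate 2, 3 h replicate 2 or 3 h replicate 3 and 1 without sham replicate 3 or 3 h replicate 1. The Actg1 promoter, chr11:120348496-120348745, minus strand, is shown because its window holds a CArG box, the site class of serum response factor, in capitals from 90 bases before the start.
Actg1: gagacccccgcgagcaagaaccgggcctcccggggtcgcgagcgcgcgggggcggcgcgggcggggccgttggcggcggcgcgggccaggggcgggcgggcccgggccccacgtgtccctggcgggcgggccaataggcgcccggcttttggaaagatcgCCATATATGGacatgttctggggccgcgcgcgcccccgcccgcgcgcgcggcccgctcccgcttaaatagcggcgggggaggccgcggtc
A CArG box stands in 378 of the 27025 windows (1.4%). Srf, the gene of that factor, was not called (0.47 ± 0.30).

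Stress genes were called in both directions. Xbp1, a transcription factor of the unfolded protein response, was 59.6, 76.1 and 68 FPKM in sham and 169, 174 and 178 FPKM at 3 h and rose by 1.32 ± 0.12 (edgeR adjusted p = 1.08e-05), while Ern1, the sensor that splices its mRNA, fell by 0.83 ± 0.18 and Derl2 (-0.77 ± 0.15). The chaperone Hspa5 (0.22 ± 0.21) and Ddit3 (-0.20 ± 0.29) were not called. Of that list, 2 of 33 tested members were called higher and 2 lower, with a median log2 difference of 0.05 and, with library totals, 1 higher and 4 lower; Creld2 (0.89) lost its call in all 6 fits that leave out a library except that without sham replicate 2, and 1 was called higher without sham replicate 3 or any single 3 h library. Among heat shock genes, 4 of 28 tested members were called higher and 2 lower, with a median log2 difference of 0.10, and 1 was lower without 3 h replicate 1 or 2. The small chaperone Hspb8 was 39.7, 60.8 and 64.7 FPKM in sham and 213, 254 and 257 FPKM at 3 h and rose by 2.09 ± 0.20, with its partner Bag3 (1.30 ± 0.22) and Hspb1 (1.07 ± 0.27), and Hsf2 fell by 1.38 ± 0.23. NRF2 antioxidant genes split: 4 of 30 tested members were called higher and 4 lower, with a median log2 difference of 0.20 and, with library totals, 3 higher and 5 lower. Srxn1 (0.98 ± 0.16) and Txnrd1 (0.67 ± 0.12) rose, as Hmox1 did, and Nfe2l2, the NRF2 gene, fell by 0.73 ± 0.14, Gclc (-0.93 ± 0.19) and Osgin1 (-2.19 ± 0.51), from 166 ± 77.1 to 37.3 ± 20.6 FPKM. Of hypoxia and glycolysis genes, 9 of 24 tested members were called higher and 2 lower, with a median log2 difference of 0.26: Epas1 (HIF-2 alpha) was 21.2, 26.6 and 28.2 FPKM in sham and 70.7, 70.9 and 57.4 FPKM at 3 h and rose by 1.35 ± 0.16, Ldha rose by 1.29 ± 0.20 and Adm by 1.90 ± 0.45. Lower calls there numbered 0 without 3 h replicate 2 and 1 without sham replicate 2 or 3 or 3 h replicate 1 or 3.

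Clock output genes were lower, and the hour of the sham livers is not given, so time of day and resection cannot be told apart here. Dbp was 2.08, 10.2 and 7.11 FPKM in sham and 0.33, 0.264 and 0.233 FPKM at 3 h and fell by 4.58 ± 0.52 (edgeR adjusted p = 5.02e-05), Per3 fell by 3.62 ± 0.38, Tef (-2.01 ± 0.31), Nr1d1 (-2.63 ± 0.47), Nr1d2 (-2.31 ± 0.34), Per2 (-1.46 ± 0.25) and Cry2 (-1.19 ± 0.21). The core activators Arntl (0.55 ± 0.29) and Clock (-0.21 ± 0.27) were not called. Arntl was called higher without sham replicate 1, at 1.11 (edgeR adjusted p = 0.000378). Over the list, 2 of 24 tested members were called higher and 7 lower, with a median log2 difference of -0.19, and 4 were higher without sham replicate 1. Hsd3b5, a male-biased target of growth hormone, was 219.7, 212 and 203 FPKM in sham and 34.6, 44.5 and 29.4 FPKM at 3 h and fell by 2.59 ± 0.42. Of growth hormone and STAT5 targets, 1 of 23 tested members was called higher and 3 lower, with a median log2 difference of -0.0, with 2 higher without sham replicate 3.

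Drug metabolism and zonation genes were called in both directions. Cyp2b10, the target of the receptor CAR, rose from 0.986 ± 0.269 to 11.2 ± 4.74 FPKM (3.46 ± 0.62), and Por, the electron donor of P450 enzymes, by 1.59 ± 0.26. Cyp2u1 (-2.55 ± 0.21), Cyp2r1 (-1.01 ± 0.23) and Cyp3a25 (-1.0 ± 0.23) fell. Of P450 genes, 3 of 29 tested members were called higher and 3 lower, with a median log2 difference of -0.10 (0.06 without sham replicate 1) and, with library totals, 3 higher and 5 lower, and 5 were lower without 3 h replicate 2. Nnmt, which methylates nicotinamide, was 19.8, 35.3 and 29 FPKM in sham and 227, 233 and 319.5 FPKM at 3 h and rose by 3.17 ± 0.21 (edgeR adjusted p = 7.5e-07), and Sult1a1 rose by 1.42 ± 0.16, while Ugt1a6a (-2.22 ± 0.34) and Ugt2b35 (-1.19 ± 0.20) fell. The sulfotransferase gene Sult2a8 was 599, 272 and 298 FPKM in sham and 172, 180.1 and 205 FPKM at 3 h, sham replicate 1 being far the highest, and its difference of -1.11 ± 0.25 was -0.66 without sham replicate 1. Of conjugation enzymes, 3 of 46 tested members were called higher and 5 lower, with a median log2 difference of -0.13 (-0.03 without sham replicate 1), with 8 higher and 3 lower without 3 h replicate 2. Of pericentral genes and Wnt targets, 2 of 22 tested members were called higher and 5 lower, with a median log2 difference of -0.26. The Wnt receptor ligases Rnf43 (-1.63 ± 0.24) and Znrf3 (-0.78 ± 0.14) fell and Ahr rose by 1.25 ± 0.27. Glul (0.32 ± 0.17), Cyp2e1 (-0.43 ± 0.16) and Axin2 (-0.85 ± 0.35) were not called. Axin2 was called lower without sham replicate 1, at -1.08 (edgeR adjusted p = 0.0334). Without 3 h replicate 2, 1 of that list was called higher, and without 3 h replicate 1, 3 were called lower. Of periportal genes, 6 of 23 tested members were called higher and 2 lower, with a median log2 difference of 0.28. Sds, Asl and Arg1, given above, were among the rises. The rises of Etnppl (0.98) and Sox9 (1.23) were lost in 4 and 2 of the fits that leave out a library and the falls of Cdh1 (-0.54) and Notch2 (-0.51) in 3 and 5, which left 0 or 1 called lower.

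**Figure D4:**
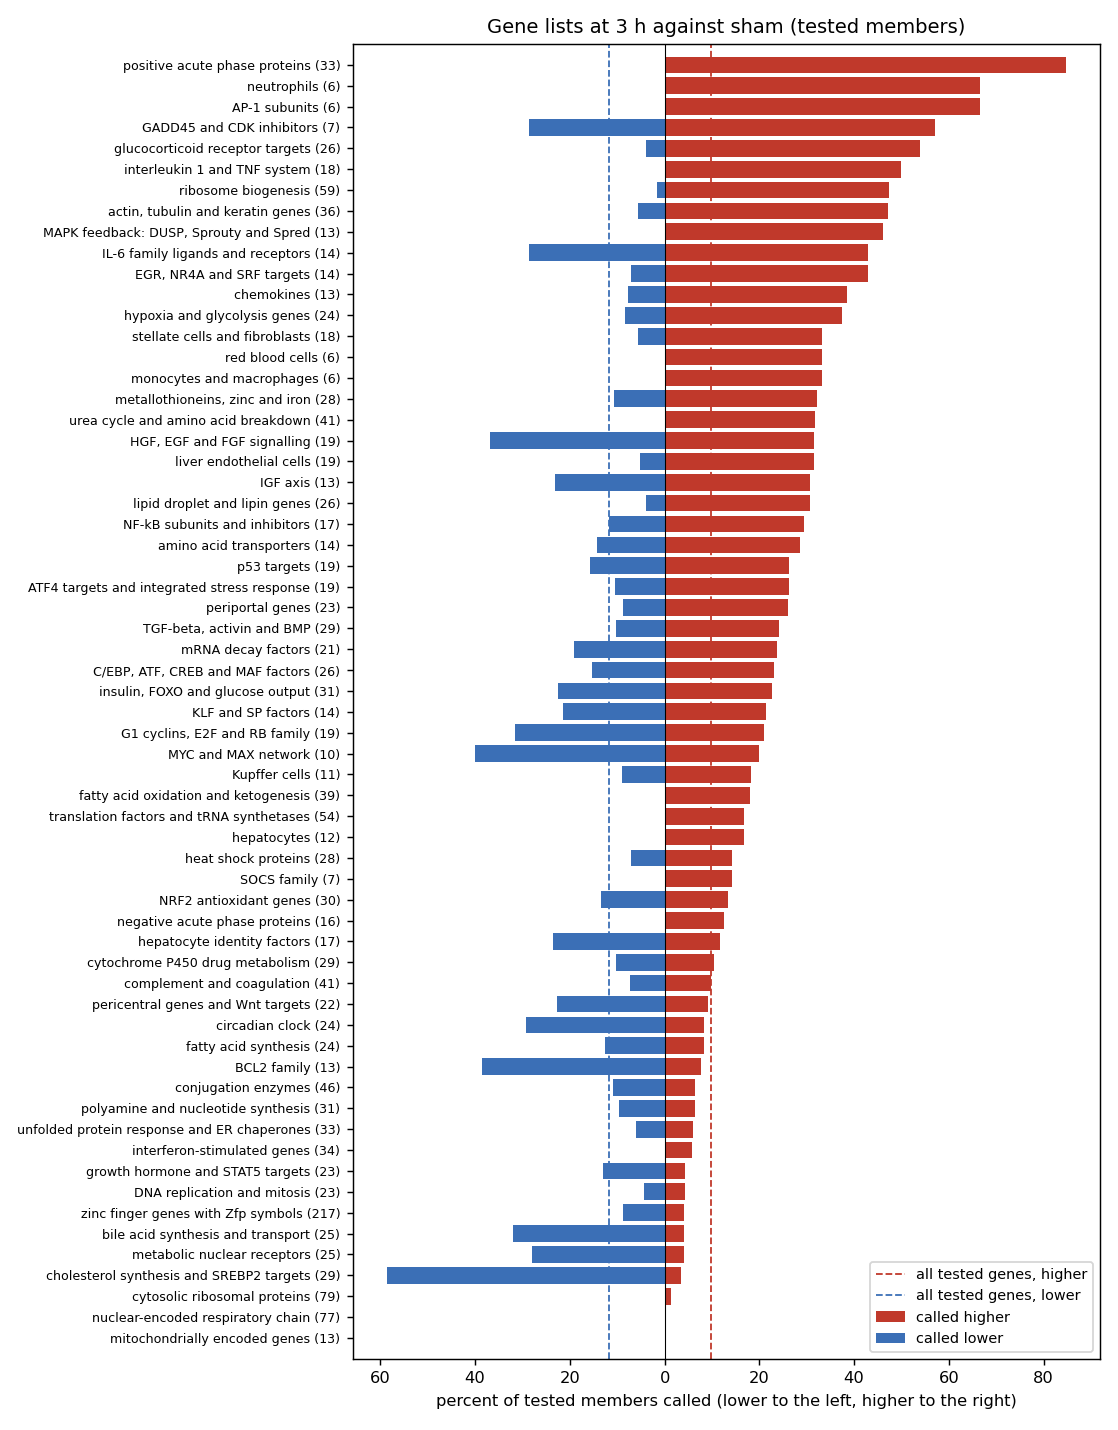
Percent of the tested members of each gene list called higher (bars to the right) or lower (bars to the left), with the number tested in brackets. Dashed lines mark the same shares over all tested genes, 9.81% higher and 11.7% lower; the acute phase list reaches furthest right and the cholesterol list furthest left.

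Of the hepatocyte markers, 2 of 12 tested members were called higher and 0 (edgeR; 0 at an unadjusted p under 0.05, 0 by DESeq2 and 0 by limma voom) lower, with a median log2 difference of 0.18. Markers of other cell types were low but some of them rose. Of the 10 marker lists of other cell types, those of red blood cells and cholangiocytes had shares of counts that did not overlap between the groups. Neutrophil genes S100a9, 0.564, 1.03 and 0.498 FPKM in sham and 6.26, 8.46 and 6.67 FPKM at 3 h, and S100a8, 0.763, 0.232 and 0.375 FPKM in sham and 3.73, 2.28 and 3.31 FPKM at 3 h, rose by 3.28 ± 0.43 and 2.72 ± 0.51. Retnlg had 3 reads in sham and 43 at 3 h, a ratio of 14.8 (95% counting interval 4.733 to 74.51). Of the 18 neutrophil markers 12 were too low to be tested, among them Ly6g, Camp, Ltf and Elane, and 1, Mpo, was at 0 in all 6 libraries. The 4 called members, S100a8, S100a9, Retnlg and Csf3r, reached 1 FPKM in at most 1 sham library and so were tested through libraries taken after resection, and their number is no support. The 18 made up 0.00313 to 0.0115% of counts in sham and 0.0103 to 0.0438% at 3 h, much of it from G0s2, which hepatocytes also express. G0s2 was 22.4, 83.6 and 71.1 FPKM in sham and 80.9, 443 and 77.5 FPKM at 3 h, 3 h replicate 2 far the highest, and was not called. The call of Csf3r (1.08) was lost without sham replicate 2, sham replicate 3 or 3 h replicate 2. The part of these cells in the rises of chemokines, Lcn2 or Il1rn was not tested.

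Of monocyte and macrophage markers, 2 of 6 tested members were called higher and 0 (edgeR; 0 at an unadjusted p under 0.05, 0 by DESeq2 and 0 by limma voom) lower, with a median log2 difference of 0.36. Together they made up 0.00825 to 0.0105% of counts in sham and 0.00893 to 0.0123% at 3 h. The lipopolysaccharide co-receptor Cd14 was 0.524, 0.889 and 0.992 FPKM in sham and 7.3, 9.39 and 5.18 FPKM at 3 h and rose by 3.13 ± 0.47 (edgeR adjusted p = 0.000485), and Plac8 rose by 1.14 ± 0.20, while Lyz2 (0.33 ± 0.17) was not called. Cd14 was under 1 FPKM in every sham library and so was tested through libraries taken after resection. Of Kupffer cell markers, 2 of 11 tested members were called higher and 1 lower, with a median log2 difference of 0.32. Together they made up 0.0645 to 0.0683% of counts in sham and 0.0579 to 0.0735% at 3 h. Clec4f (0.32 ± 0.16) was not called, and the higher calls numbered 4 without sham replicate 2, 1 without sham replicate 3, 3 h replicate 1 or 3 h replicate 3 and 0 without 3 h replicate 2. Of liver endothelial markers, 6 of 19 tested members were called higher and 1 lower, with a median log2 difference of 0.48. Together they made up 0.0385 to 0.0463% of counts in sham and 0.0425 to 0.0592% at 3 h. Lyve1 rose by 2.26 ± 0.38, the Wnt ligand Wnt2, which liver endothelium supplies to hepatocytes, by 1.28 ± 0.29 and Pecam1 by 0.84 ± 0.17. Without sham replicate 2 or 3 h replicate 2, 3 of these were called higher, and the lower call, of Clec14a (-0.79), was lost without sham replicate 1 or any single 3 h library. Of stellate cell and fibroblast markers, 6 of 18 tested members were called higher and 1 lower, with a median log2 difference of 0.45. Together they made up 0.0525 to 0.0669% of counts in sham and 0.0505 to 0.0724% at 3 h. Pdgfra rose by 1.53 ± 0.24 and Ecm1 by 0.98 ± 0.21, with 3 higher without sham replicate 2 and 2 without 3 h replicate 2. None of the 16 markers of T and NK cells reached the level for testing, and they made up 0.000723 to 0.000876% of counts in sham and 0.000591 to 0.000896% at 3 h. Of cholangiocyte markers, 2 of 3 tested members were called higher and 0 (edgeR; 0 at an unadjusted p under 0.05, 0 by DESeq2 and 0 by limma voom) lower, with a median log2 difference of 0.94. Together they made up 0.00415 to 0.00488% of counts in sham and 0.00558 to 0.00822% at 3 h. Only 1 was higher without sham replicate 3 and 0 without 3 h replicate 2. B and plasma cell markers made up 0.00189 to 0.00248% of counts in sham and 0.000912 to 0.00231% at 3 h, and those of platelets 0.00028 to 0.000726% of counts in sham and 0.000514 to 0.000685% at 3 h. Red blood cell genes made up 0.0174 to 0.0196% of counts in sham and 0.0199 to 0.0209% at 3 h, with Hba-a1 (0.78 ± 0.20) and Hba-a2 (1.10 ± 0.28), close copies of each other, called higher and both lost without sham replicate 2.

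Further lists gave these counts. Of EGR, NR4A and SRF targets, 6 of 14 tested members were called higher and 1 lower, with a median log2 difference of 0.75 (0.48 without sham replicate 1) and, with library totals, 3 higher and 3 lower. Higher calls numbered 3 without 3 h replicate 1 or 2. The lower calls numbered 3 without sham replicate 1 and 0 without sham replicate 2, sham replicate 3, 3 h replicate 1 or 3 h replicate 3. Of ATF4 targets, 5 of 19 tested members were called higher and 2 lower, with a median log2 difference of 0.50 (0.09 without sham replicate 1) and, with library totals, 3 higher and 4 lower, with 2 higher without 3 h replicate 3 and 1 lower in all 6 fits that leave out a library except that without sham replicate 3. Of polyamine and nucleotide synthesis genes, 2 of 31 tested members were called higher and 3 lower, with a median log2 difference of 0.10, with 0 lower without 3 h replicate 2 and 1 without 3 h replicate 3. Sat1, which breaks polyamines down, was 13.8, 17.5 and 18.3 FPKM in sham and 37.6, 33.8 and 39.4 FPKM at 3 h and rose by 1.12 ± 0.16, and Ctps, which makes CTP, rose by 1.13 ± 0.18. Of fatty acid synthesis genes, 2 of 24 tested members were called higher and 3 lower, with a median log2 difference of -0.12 (0.01 without sham replicate 1), with 1 higher without sham replicate 2 or 3 h replicate 1 and 1 lower without 3 h replicate 2 or 3. Of nuclear-encoded respiratory chain genes, 0 (edgeR; 1 at an unadjusted p under 0.05, 0 by DESeq2 and 0 by limma voom) of 77 tested members were called higher and 0 (edgeR; 0 at an unadjusted p under 0.05, 0 by DESeq2 and 0 by limma voom) lower, with a median log2 difference of 0.21 (0.06 without sham replicate 1), with 1 higher without 3 h replicate 2. Of the 13 mitochondrially encoded genes none was called (edgeR, DESeq2 and limma voom; 0 at an unadjusted p under 0.05), with a median of -0.03 (0.43 and 2 called higher without sham replicate 1). Of zinc finger genes with Zfp symbols, 9 of 217 tested members were called higher and 19 lower, with a median log2 difference of -0.18 (0.06 without sham replicate 1) and, with library totals, 6 higher and 47 lower. Higher calls numbered 16 without sham replicate 1, and lower calls 12 to 31 over the fits that leave out a library. Of interferon-stimulated genes, 2 of 34 tested members were called higher and 0 (edgeR; 3 at an unadjusted p under 0.05, 1 by DESeq2 and 0 by limma voom) lower, with a median log2 difference of 0.10 and, with library totals, 0 higher and 3 lower; the higher calls, Stat2 (0.54) and Irf9 (0.54), were lost in 3 and 6 of those fits.

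Some of the largest changes belonged to genes with little described liver function. Syt12, a synaptotagmin, was 0.266, 0.165 and 0.169 FPKM in sham and 3.18, 5.77 and 7.09 FPKM at 3 h and rose by 4.70 ± 0.31 (edgeR adjusted p = 7.07e-07), and Tacc2, a centrosome-associated protein, was 1.07, 1.58 and 1.29 FPKM in sham and 15.6, 23.2 and 26.5 FPKM at 3 h and rose by 4.01 ± 0.23. The lectin-like Clec2h was 5.69, 4.9 and 6.45 FPKM in sham and 0.228, 0.292 and 0.694 FPKM at 3 h and fell by 3.87 ± 0.41. The potassium channel Kcnk5 (-3.26 ± 0.41), the ubiquitin ligase subunit Fbxo21 (-2.89 ± 0.22), Fam89a (-2.86 ± 0.38), the zinc finger gene Zfp467 (-2.41 ± 0.30), Hsd3b2 (-2.39 ± 0.32) and the tight junction protein occludin (Ocln, -2.59 ± 0.22, from 6.63 ± 1.94 to 1.13 ± 0.0576 FPKM) fell as well. None of these groups overlapped. The genes were picked for their large changes, so this is no separate support. The groups did not overlap for 36.4% of all tested genes.

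In several noncoding classes genes were called lower more often than higher. Among these were lincRNAs (52 lower and 25 higher of 212), antisense genes (38 and 14 of 212) and processed transcripts (19 and 7 of 73). Protein-coding genes had 1180 lower and 1041 higher of 9862. Processed pseudogenes went the other way, with 12 lower and 20 higher of 524, as did transcribed processed pseudogenes, with 1 lower and 4 higher of 34. No source here gives the strand setting of the counts, and an antisense gene's reads cannot be told apart from those of its partner. Gm45774 (chr8:94170748-94173412, minus strand, GRCm38), which overlaps Mt2 on the other strand, had 0 reads in sham and 502 at 3 h, at least 173-fold higher against a floor of 3 counts over the group. The lincRNA 1200007C13Rik (chr2:167827693-167833646, minus strand) had 3 reads in sham and 366 at 3 h, a ratio of 126 (95% counting interval 42.73 to 613.2). Gm43305 (chr14:54292443-54297456, minus strand) was 0.164, 3.0 and 0.778 FPKM in sham and 255, 59.1 and 244 FPKM at 3 h, with 3 h replicate 2 the lowest of the 3. The processed transcript BC024386 (chr7:140906014-140907983, plus strand) was 171, 228 and 238 FPKM in sham and 73.9, 56.7 and 67.5 FPKM at 3 h and fell by 1.73 ± 0.16 (edgeR adjusted p = 1.17e-05), among the 10 largest losses in level.

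Leaving out sham replicate 1 changed the number of calls little and the direction of none. Without it 1274 genes were called higher (11.1%) and 1398 lower (12.2%). Of the calls made with all libraries, 1001 of 1123 higher (89.1%) and 1111 of 1345 lower (82.6%) were made again, 122 and 234 were lost, and 273 and 287 were new. All 2468 genes called with it kept their sign, and 199 of them moved by more than 1.5 times. None of these differences grew by more than 1.53 times, so moves beyond that were all to smaller differences. The acute phase list had 29 higher instead of 28, and the biological coefficient of variation estimated by edgeR went from 20.6% to 16.3%. Among highly expressed genes, Ambp (0.49; 0.35 (adjusted p = 0.0587) without it), H2-D1 (0.56; 0.35 (adjusted p = 0.0565)) and Rcl1 (0.57; 0.34 (adjusted p = 0.0718)) lost their calls. Tdo2 (0.65 ± 0.23; 0.81 (adjusted p = 0.0265) without it), Cyp1a2 (-0.46 ± 0.16; -0.57 (adjusted p = 0.017)) and the mitochondrially encoded mt-Nd1 (0.06 ± 0.24; 0.47 (adjusted p = 0.0473)) gained a call.

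**Figure D5:**
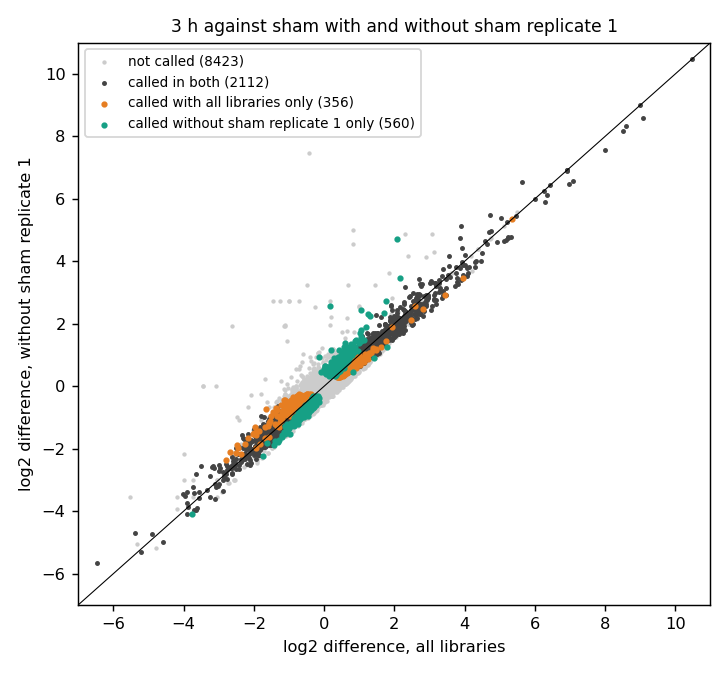
Log2 difference of 3 h over sham with all libraries (x axis) and without sham replicate 1 (y axis) for the 11451 tested genes, with the line of equal values. Dark points are the 2112 genes called in both fits, orange points the 356 called only with all libraries, green points the 560 called only without it and grey points the 8423 not called.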

How the data were processed

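Whole-liver RNA of 12 mouse libraries (3 sham and 3 each at 3 h, 6 h and 12 h after resection) was sequenced. The authors deposited 1 table with raw counts per gene and FPKM for each library. Per the submitters' processing notes, featureCounts 1.5.0-p3, HISAT2 2.0.5, fastp, CASAVA 1.8 and DESeq2 1.20.0 were used, with the build GRCm38 (mm10). Their roles, the annotation release and the strand setting are not given in the sources used here. The deposited FPKM equal the counts divided by the deposited gene length and by an effective size of each library, not its plain total.

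Groups came from the labels. Genes that reached 1 FPKM in at least 3 of all 12 libraries entered the test on the counts with edgeR 4.0.16 (R 4.3.3; TMM scaling, quasi-likelihood test, 1 model with 4 group means, Benjamini-Hochberg adjustment, called under 0.05). The procedure was checked on simulated counts. Alternatives used limma 3.58.1 (pseudocount 1 or 0.1), DESeq2 1.42.0, other scalings, filters and library sets. Named genes were the largest changes, the strongest called and highest uncalled members of each list, a set of well-known regeneration genes, the largest gains and losses in FPKM, the largest noncoding changes, and those whose call depended on sham replicate 1; not every one is described, and some are not reported here. Members, lists and rules were chosen with earlier results of these data known. Ratios for genes of few reads are per library total, with exact 95% intervals that cover counting error only, and the floor for a group at 0 was 3 counts. Gene spans and exon blocks came from the GENCODE annotation of GRCm38. Promoter windows are the 250 bases before the start in RefSeq (GRCm38.p6). As 79.5% of tested protein-coding genes (7841 of 9862) matched a promoter, no gene list was compared for motifs.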

Additional observations from a re-analysis of the deposited data

How the results depend on the processing

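The counts of 1123 genes called higher and 1345 called lower stayed within 1.5 times under limma on log2(FPKM + 1) or log2(FPKM + 0.1), DESeq2, limma voom, robust estimation, median-ratio size factors, no filter and the fit without the third 6 h library. They went outside that range with a minimum of 5 FPKM (604 higher and 675 lower, with fewer genes tested), with a 2-fold minimum added (577 and 602), with library totals (2346 lower) and with only the 6 libraries compared (768 lower, with fewer libraries to estimate the spread). Leaving out 1 of the 6 libraries gave 826 to 1274 higher, the fewest without 3 h replicate 2, and 884 to 1398 lower, the fewest without 3 h replicate 3; the cause was not tested. Leaving out both sham replicate 1 and the third 6 h library, chosen after seeing the data, gave 1367 higher and 1491 lower. With a replicate block the counts were 1013 and 1182. Libraries with the same number did not deviate together (correlations of -0.119, -0.0933 and 0.0651), so the numbers do not pair the libraries. Of the 321 called genes named in the text, 299 were also called without sham replicate 1, 243 in each of the 6 fits that leave out a library and 287 with library totals. With only the 6 libraries compared, 66 of them were no longer called, more than in any other single setting. Among these were Jun (edgeR adjusted p = 0.12), Il6st (0.0574), Grb2 (0.0564), Klf2 (0.0556), Hspb1 (0.0556) and Tfrc (0.0547).

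No called gene named in the text changed direction. The genes named as not called that did were these, over the fits that leave out a library: Clock (-0.44 to 0.27), Cps1 (-0.0557 to 0.46), G6pc (-0.33 to 0.59), Igf1 (-0.0446 to 0.10), Il1b (-0.0404 to 0.84), Mcm5 (-0.19 to 0.56), Mdm2 (-0.18 to 0.0186), Nfkbia (-0.25 to 0.44), Pdk4 (-1.18 to 2.66), Ppargc1a (-0.34 to 0.17), Srebf2 (-0.15 to 0.075), Tsc22d3 (-1.07 to 0.20), Ttr (-0.10 to 0.17) and mt-Nd1 (-0.15 to 0.47). With library totals the difference was -0.0439 for Alb, -0.0491 for Cps1, -0.00443 for G6pc, -0.16 for Igf1, -0.0532 for Mcm5, -0.14 for Nfkbia, -0.15 for Ttr and -0.10 for mt-Nd1. With a minimum of 5 FPKM it was -0.0562 for Igf1, -0.000355 for Nfkbia, -0.0331 for Ttr and -0.0245 for mt-Nd1, and with the replicate block it was -0.0779 for G6pc. Without both sham replicate 1 and the third 6 h library it was 0.27 for Clock, -0.10 for G6pc, -0.0402 for Il1b, -0.0733 for Mcm5, 0.0186 for Mdm2, -0.25 for Nfkbia, 0.10 for Ppargc1a and -0.10 for Ttr. With 3 libraries a group, changes well under 2-fold and genes of few reads are weakly resolved.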
